A study of Mus musculus with 18 samples.

Results

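Glycolysis was followed in spinal motor neurons of SOD1 G93A mice through the messenger RNAs of 10 enzymes: hexokinase 1 (Hk1), glucose-6-phosphate isomerase (Gpi1), the muscle and platelet forms of phosphofructokinase (Pfkm and Pfkp), aldolase A (Aldoa), phosphoglycerate kinase 1 (Pgk1), the enolases Eno1 and Eno2, and the lactate dehydrogenase subunits Ldha and Ldhb. The genes were listed by symbol, and every probe set whose platform annotation gives 1 of these symbols alone was taken. That gave 18 of the 22690 probe sets, for 8 of the 10 genes, among 12393 genes with a probe set of their own in all. Eno1 and Gpi1 were not analysed here, because the annotation used gives neither symbol alone. In 16 of the 18 probe sets, covering the same 8 genes, the signal was above the array's median on at least 3 of the 18 arrays, and these were tested. The remaining ones, 1420901_a_at of Hk1 with signals from 2.1 to 27.6 and 1430634_a_at of Pfkp with signals from 1.4 to 26.7, were not tested.

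The animals carried the SOD1 G93A transgene, a human superoxide dismutase 1 gene with a mutation that causes familial amyotrophic lateral sclerosis, or were littermates without it, called controls here. They were 60, 90 or 120 days old, with 3 mice in each of the 6 groups and 1 array per mouse. From each mouse 1000 lumbar motor neurons were taken by laser capture from frozen sections 10 um thick and stained with toluidine blue. The labels used here name no strain background, sex or transgene promoter, and captured cells were chosen by staining and not by a molecular marker, as far as the labels say.

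In glycolysis, hexokinase traps glucose as glucose-6-phosphate, and phosphofructokinase takes the committed step that sets much of the pathway's rate. Aldolase then splits the hexose, phosphoglycerate kinase makes ATP, and enolase makes the substrate of pyruvate kinase. Lactate dehydrogenase interconverts pyruvate and lactate, with the Ldha subunit common in muscle and the Ldhb subunit common in heart and neurons. Neurons rely mainly on oxidation of pyruvate and lactate, part of which astrocytes and oligodendrocytes supply. Several of these enzyme genes are known targets of the hypoxia-inducible factor HIF-1, which binds sites with the core ACGTG.

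The 250 bases before the transcription start of 4 members are shown. Eno2, Pfkp and Pgk1 were taken from the members whose RNAs carry differences described below, and Ldha as the member with the most HIF-1 cores. Aldoa and Ldhb also have probe sets with called differences, and their windows are not printed. Sequences and starts are those of RefSeq on GRCm38.p6, written 5′ to 3′ on the gene's strand. Capitals mark ACGTG on either strand (CACGT where the core is on the other strand), and cores that overlap in CACGTG form 1 run of capitals. The Eno2 window is chr6:124769674-124769923 on the minus strand, and the Pfkp window is chr13:6648772-6649021 on the minus strand. The Pgk1 window is chrX:106186850-106187099 on the plus strand, and the Ldha window, at the first of its starts in the table, is chr7:46845554-46845803 on the plus strand.
Eno2: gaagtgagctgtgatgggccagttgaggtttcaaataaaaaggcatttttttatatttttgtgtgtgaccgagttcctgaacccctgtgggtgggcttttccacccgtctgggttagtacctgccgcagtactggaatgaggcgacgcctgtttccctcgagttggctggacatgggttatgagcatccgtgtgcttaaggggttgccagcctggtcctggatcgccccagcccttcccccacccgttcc
Pfkp: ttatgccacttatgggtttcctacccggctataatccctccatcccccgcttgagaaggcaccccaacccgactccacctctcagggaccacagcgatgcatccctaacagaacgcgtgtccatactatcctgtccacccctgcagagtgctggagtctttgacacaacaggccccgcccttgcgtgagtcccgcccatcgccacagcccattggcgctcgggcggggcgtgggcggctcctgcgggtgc
Pgk1: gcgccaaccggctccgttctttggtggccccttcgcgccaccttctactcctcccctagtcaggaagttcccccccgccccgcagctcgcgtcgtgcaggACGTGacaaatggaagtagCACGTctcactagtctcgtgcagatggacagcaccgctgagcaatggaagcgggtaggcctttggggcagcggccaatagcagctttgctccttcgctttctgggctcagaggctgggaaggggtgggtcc
Ldha: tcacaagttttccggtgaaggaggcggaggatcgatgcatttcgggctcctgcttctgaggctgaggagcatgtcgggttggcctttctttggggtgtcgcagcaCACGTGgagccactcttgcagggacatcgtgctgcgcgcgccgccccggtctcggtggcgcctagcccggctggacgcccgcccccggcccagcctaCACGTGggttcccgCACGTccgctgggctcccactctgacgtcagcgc
Neither the Eno2 nor the Pfkp window holds ACGTG. Pgk1 has 2 cores, whose first bases lie 150 and 131 bases before the start, and Ldha has 5, of which 4 lie in pairs within 2 copies of CACGTG. The Pfkp window holds 4 copies of the GC box GGGCGG, searched on both strands, and the Eno2 window holds 1 copy of TATAAA, searched likewise, 201 bases before the start. Over all 10 listed genes the table holds 19 such windows, of which 6, from Aldoa, Pgk1, Ldha and Pfkm, hold the core and 8 hold a GC box. Among all 32851 windows of 250 bases in the table, 16.6% hold ACGTG, 6.02% hold CACGTG, 32.7% hold GGGCGG and 12.4% hold TATAAA. Several windows of a gene overlap, so the counts of windows are not counts of independent sequences.

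The values are MAS5 signals, a brightness per probe set that the authors scaled to about the same trimmed mean on every array. Levels of different probe sets are not compared, since their probes differ in affinity. Differences are on the log2 scale, where 1 stands for a doubling, with the standard error after ±. They come from limma fitted to all 16565 tested probe sets, with 3 arrays per group. Only an adjusted p below 0.05 is called a change. A gene with several probe sets is described first by the brightest tested one that is not marked _x_at, the suffix for probes that may also bind transcripts of other genes. For Aldoa all 4 probe sets are of that kind, so its values are uncertain in that respect. Probe sets of the same gene are not independent, so counts of probe sets below are not counts of genes.

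Before the comparisons, 2 arrays stand out for these enzymes. Summarised as the mean log2 level of the 8 genes minus the mean of all tested probe sets, control replicate 1 of 120 days stood at 4.17, against 3.48 and 3.58 on the other control arrays of that age. On G93A replicate 3 of 60 days this measure was 2.09, against 2.85 and 2.79. The group means ran from 2.58 in G93A mice at 60 days to 3.74 in controls at 120 days, with 2.75 and 3.07 in controls at 60 and 90 days and 3.21 and 3.25 in G93A mice at 90 and 120 days. Array medians and array controls also differed between groups. The median signal per array averaged 61.5, 52.9 and 43.7 in controls at 60, 90 and 120 days and 52.8, 47.4 and 54.3 in G93A mice. On the log2 scale, the Gapdh control read near the 3′ end exceeded that near the 5′ end, on average, by 3.36, 3.25 and 4.48 in controls at 60, 90 and 120 days and 4.14, 4.39 and 4.94 in G93A mice. The mean log2 level of 9 hybridization-control probe sets averaged 11.49, 10.12 and 12.01 in controls and 9.88 and 9.45 in G93A mice at 60 and 90 days, with 11.63 to 12.40 on the G93A arrays of 120 days.

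**Figure D1:**
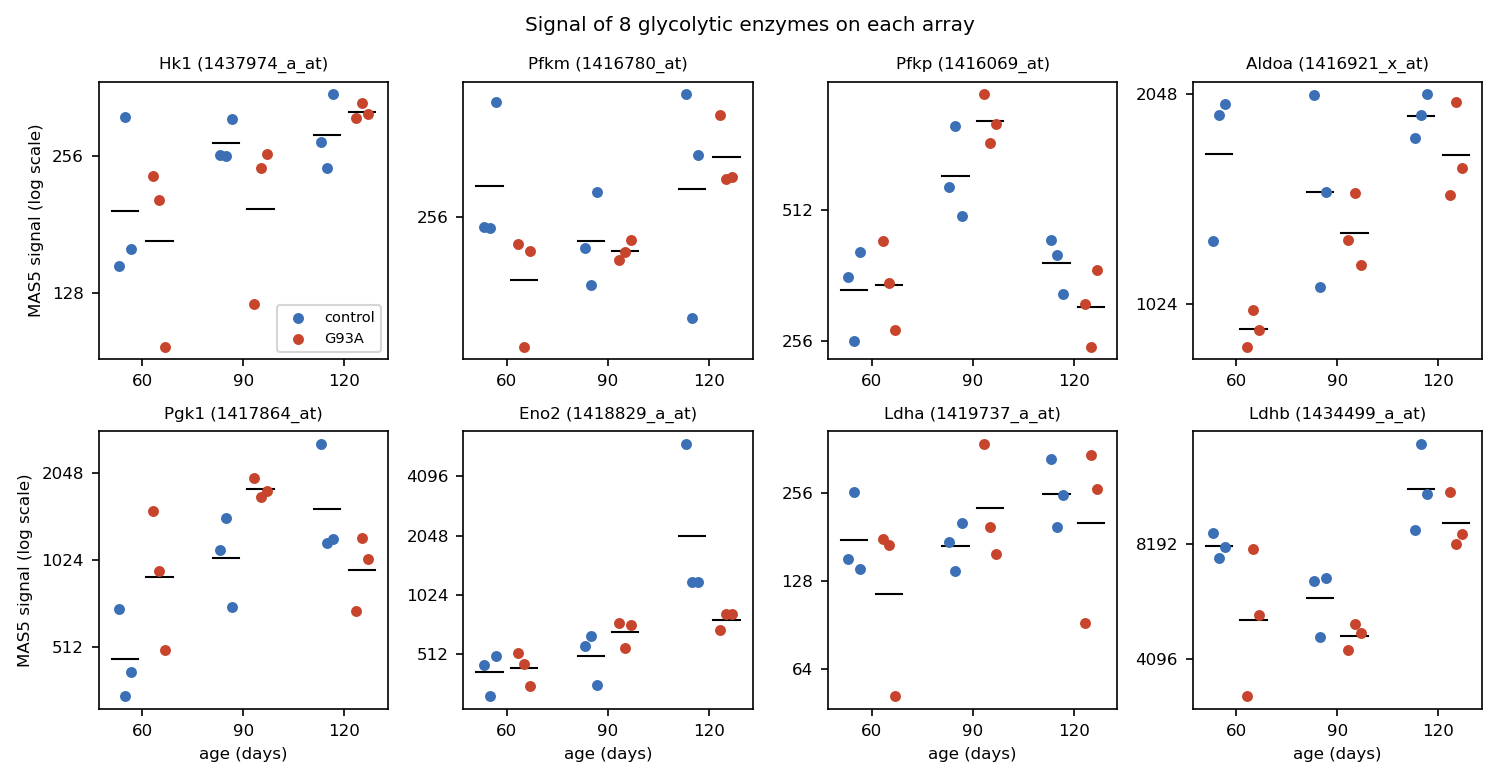
MAS5 signal (log scale) of the representative probe set of each of 8 glycolytic enzymes against age in days, with 1 point per array and the bar at the mean of the log2 signals of each group of 3 arrays. Pfkp signals at 90 days (495 to 941) lie above those at 60 and 120 days (249 to 437), and a single control array at 120 days gives Eno2 a signal of 5991.

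No glycolytic enzyme passed the test between genotypes at any of the 3 ages. At 60 days 0 of the 16 probe sets were called by limma, where 0.688% of all tested probe sets were. At 90 days 0 of 16 were called against 0% of all, and at 120 days 0 of 16 against 0.0241%. Unadjusted p-values below 0.05 were found for 2, 1 and 2 of the 16 probe sets at 60, 90 and 120 days, against 12.6%, 4.56% and 12.2% of all tested. In 3, 2 and 1 probe sets the 3 G93A signals did not overlap the 3 control signals, against 18.5%, 11.5% and 16.1% of all. The 8 genes had median differences of -0.30, 0.18 and -0.31 at 60, 90 and 120 days, beside medians over all tested probe sets of -0.07, -0.02 and 0.09. The standard errors of the member probe sets had a median of 0.37, against 0.69 over all tested. P-values here measure the spread between mice. Because RNA of pooled captured cells was measured, fewer cells of a type and less RNA per cell cannot be told apart.

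The first steps of the pathway gave small differences between genotypes. For Hk1, which traps glucose in the cell, the signal ran from 97.8 to 350 over the 18 arrays, and in each age the groups overlapped. Subtracting controls from G93A mice gave -0.22, -0.48 and 0.17 at the 3 ages in order, each ± 0.38, with adjusted p-values of 0.857, 0.997 and 0.901. Pfkm signals ran from 179.5 to 358 over all arrays. At 60 days the G93A signals of Pfkm, 238, 179.5 and 233, all lay below the control signals of 249, 248.5 and 350.2. That difference was -0.37 ± 0.30 (95% confidence interval -0.996 to 0.25, adjusted p = 0.658), and it was -0.04 ± 0.30 at 90 days and 0.13 ± 0.30 at 120 days.

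Pfkp, the phosphofructokinase form that is prominent in brain, showed overlapping genotypes at every age. Its signals in G93A mice were 434, 347 and 271 at 60 days, 941, 727 and 802 at 90 days, then 312, 248.5 and 372 at 120 days. Controls gave 359, 256 and 409.6 at 60 days, 578, 797 and 495 at 90 days, then 437, 403 and 328 at 120 days. Both genotypes were thus highest at 90 days. The differences between genotypes were 0.04, 0.42 and -0.33 at 60, 90 and 120 days, each ± 0.29, with adjusted p-values of 0.975, 0.997 and 0.687.

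Aldoa had the smallest p between genotypes at 60 days. With probe set 1416921_x_at, G93A mice gave signals of 890.2, 1004 and 939 and controls 1259.9, 1907 and 1979, so that all 3 G93A arrays lay below all 3 control arrays. The G93A mean was 1.78-fold lower, a log2 difference of -0.83 ± 0.28 (interval -1.41 to -0.26), with an unadjusted p of 0.00637 and an adjusted p of 0.174 in limma. At 90 days the signals were 1265, 1476 and 1165 in G93A mice and 2039, 1082 and 1479 in controls, and the difference was -0.20 ± 0.28. At 120 days they were 1469, 1993 and 1605 in G93A mice and 1771, 1908 and 2045.5 in controls, and the difference was -0.19 ± 0.28. Groups overlapped at both later ages. The other Aldoa probe sets gave -0.56, -0.55 and -0.06 at 60 days, with adjusted p-values of 0.548, 0.424 and 0.963, and in 1434799_x_at the groups did not overlap either. Motor neuron marker genes summed to 7404 to 19035 on the G93A arrays of 60 days and to 18697 to 28016 on the control arrays of that age. Nefl, a neurofilament subunit, alone gave 6044 to 16204 and 17125 to 25382 of these sums, and over the 6 tested markers the median difference was -0.19, with 0 called and 0 at an unadjusted p below 0.05 in limma. The part of these markers in the Aldoa value was not tested.

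Pgk1 gave differences of opposite sign at the early and the late age. Signals of 1417864_at were 1514.5, 934 and 499 in G93A mice and 693, 344 and 418 in controls at 60 days. They were 1971, 1691 and 1777 in G93A mice and 1109, 1427 and 705 in controls at 90 days. All 3 G93A arrays of 90 days lay above the control arrays, while at 60 days 1 G93A array lay below the highest control array. At 120 days the signals were 683, 1216 and 1028.5 in G93A mice and 2589.9, 1169 and 1206.5 in controls, with overlap. The differences were 0.94, 0.80 and -0.70, each ± 0.39, with unadjusted p-values of 0.0233, 0.0498 and 0.0848 and adjusted p-values of 0.297, 0.997 and 0.489. Without control replicate 1 of 120 days, the difference at that age was -0.32 (adjusted p = 0.901). The 2 _x_at probe sets of Pgk1 gave values below 0 at the ages (-0.45 and -0.15 at 60 days, -0.22 and -0.40 at 90 days) where 1417864_at was above it.

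Eno2, the neuronal enolase, had the smallest p of all the enzymes between genotypes, at 120 days. Its signals at that age were 676, 819 and 815 in G93A mice and 5991, 1196 and 1189 in controls, so the groups did not overlap, and 1 control array lay far above the other 2. The difference was -1.41 ± 0.42 (interval -2.28 to -0.54, 2.66-fold lower in G93A mice), with an unadjusted p of 0.00268 and an adjusted p of 0.182. Without that control array it was -0.64 (adjusted p = 0.596). At 60 days the signals were 519, 454 and 352 in G93A mice and 452, 312 and 500.2 in controls, while 90-day signals were 734.5, 552 and 720 in G93A mice and 565, 634 and 356 in controls. The groups overlapped at both ages, with differences of 0.08 ± 0.42 and 0.40 ± 0.42.

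The lactate dehydrogenase subunits did not pass the test in either direction. Ldha signals ran from 51.4 to 378 over the 18 arrays, and its genotype differences were -0.61, 0.43 and -0.33 at 60, 90 and 120 days, each ± 0.49, the largest standard error among the 16 probe sets. Both the highest and the lowest Ldha signal came from G93A arrays, replicate 1 of 90 days and replicate 3 of 60 days. For Ldhb, probe set 1434499_a_at gave 3278, 7978 and 5352 in G93A mice and 8789.8, 7548 and 8070 in controls at 60 days. It gave 4333, 5067 and 4805 against 6590.5, 4687 and 6701 at 90 days, and 11236, 8223 and 8728 against 8932, 15003 and 11117 at 120 days. G93A means were below control means at each age, with overlap at each age. The differences were -0.65, -0.32 and -0.30, each ± 0.36, with adjusted p-values of 0.475, 0.997 and 0.784.

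**Figure D2:**
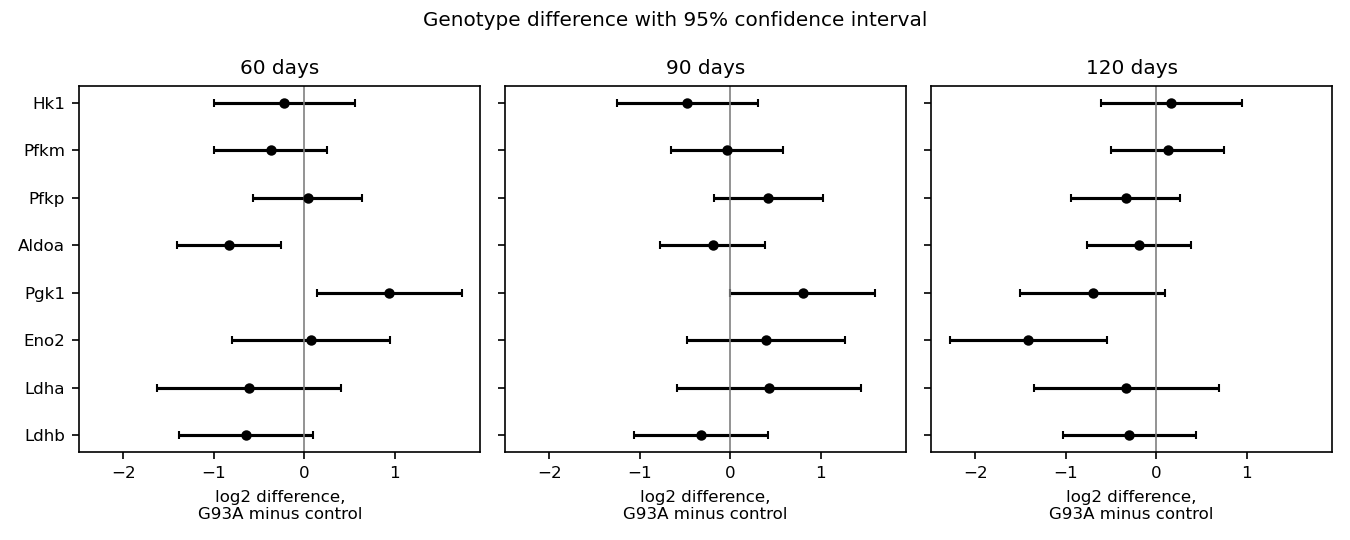
Log2 difference, G93A minus control, of the representative probe set of each enzyme at 60, 90 and 120 days, with points at the estimate and bars for the 95% confidence interval from limma (3 against 3 mice). The intervals of Aldoa and Pgk1 at 60 days, Pgk1 at 90 days and Eno2 at 120 days lie off 0, and none of these has an adjusted p below 0.05.

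Averaged over the 3 ages (9 G93A mice against 9 controls), 0 of the 16 probe sets were called, against 0.0121% of all tested, and 2 had an unadjusted p below 0.05, against 7.74% of all. Both were Aldoa probe sets. The mean difference of 1416921_x_at was -0.40 ± 0.16 (unadjusted p = 0.0191, adjusted p = 0.562 in limma), and that of 1434799_x_at was -0.33 ± 0.16 (adjusted p = 0.640). Ldhb stood at -0.42 ± 0.21 and Pgk1 at 0.35 ± 0.22, with adjusted p-values of 0.649 and 0.748. The median of the 8 genes was -0.17, beside 0.01 over all tested probe sets. A change of the genotype difference with age, tested with an F test of the 90 and 120 day differences against the 60 day one, was called for 0 of 16 probe sets, against 0.417% of all, and 4 of 16 had an unadjusted p below 0.05, against 13.1% of all. Pgk1 (unadjusted p = 0.0109, adjusted p = 0.225) and Eno2 (0.0129 and 0.237) had the smallest values, and the other 2 were Ldhb probe sets, 1416183_a_at and 1455235_x_at.

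With age, several enzymes had probe sets that were called, though each of these calls was lost in at least 1 alternative setting of the analysis. In controls, 3 of the 16 probe sets rose from 60 to 120 days, against 3.87% of all tested that rose, and 0 fell. Eno2 rose by 2.31 ± 0.42 (4.94-fold, adjusted p = 0.00199), Pgk1 by 1.73 ± 0.39 (3.32-fold, adjusted p = 0.00946) and Aldoa, in 1434799_x_at, by 1.23 ± 0.28 (2.34-fold, adjusted p = 0.0102). For each of these the 3 arrays of 120 days lay above the 3 arrays of 60 days, which held for 6 of the 16 probe sets and for 9.5% of all tested. Without control replicate 1 of 120 days, Eno2 still rose, by 1.53 (adjusted p = 0.00710), while Pgk1 stood at 1.36 and no longer passed (adjusted p = 0.0566). With the Gapdh ratio of 3′ over 5′ signal as a covariate none of the 3 passed: Eno2 stood at 1.82 (adjusted p = 0.103), Pgk1 at 1.09 (adjusted p = 0.286) and Aldoa at 1.34 (adjusted p = 0.0727). The Aldoa rise was 0.71 with quantile normalization (adjusted p = 0.152), and with no variance trend in the fit neither Aldoa (adjusted p = 0.0554) nor Pgk1 (adjusted p = 0.0564) passed. The median difference of the 8 genes was 0.51, beside -0.26 over all tested probe sets. Over the same span the mean of the control array medians went from 61.5 to 43.7, and its part in these values was not tested.

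In G93A mice, 1 of 16 probe sets rose from 60 to 120 days, against 1% of all tested, and 0 fell. It was 1434799_x_at of Aldoa, whose signals were 325, 325 and 376 at 60 days, 679, 664 and 525 at 90 days, then 765, 1223 and 857.5 at 120 days. In controls the same probe set gave 477, 431 and 602 at 60 days, 931.5, 525.5 and 629 at 90 days, then 1018, 1195 and 1306 at 120 days. The rise in G93A mice was 1.45 ± 0.28 (2.72-fold, adjusted p = 0.0113), and without G93A replicate 2 of 120 days it was 1.25 (adjusted p = 0.0580). The call was also lost with the hybridization controls as a covariate (1.14, adjusted p = 0.191) and with no variance trend (adjusted p = 0.0934). The other Aldoa probe sets stood at 0.83, 0.16 and 0.91 and did not pass. In 8 of the 16 probe sets the G93A arrays of 120 days all lay above those of 60 days, against 10.6% of all tested. Eno2 was among these, at 0.82 ± 0.42 (adjusted p = 0.340), whereas Pgk1 stood at 0.09 ± 0.39 (adjusted p = 0.936). The median of the 8 genes was 0.81, beside -0.11 over all tested.

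From 60 to 90 days no enzyme was called in either genotype by limma, against 1.61% of all tested probe sets in controls and 0% in G93A mice. Unadjusted p-values below 0.05 were found for 3 of 16 probe sets in controls, against 14.8% of all, and for 6 of 16 in G93A mice, against 5.49% of all. All of these differences lay above 0. In G93A mice 10 of the 16 probe sets had all 3 signals of 90 days above all 3 of 60 days, against 6.53% of all tested. In controls 4 did, against 8.26%, and 1 lay wholly below, against 10.2%. The 10 of G93A mice were probe sets of Aldoa, Ldhb, Eno2, Pgk1 and Pfkp, with several of Aldoa and of Ldhb, so they are not 10 genes. The 6 with unadjusted p below 0.05 in G93A mice were of Ldhb, Aldoa, Pgk1 and Pfkp, with several of Ldhb. Pfkp had the smallest p in G93A mice, at 1.25 ± 0.29 (unadjusted p = 0.000263, adjusted p = 0.545), and stood at 0.87 ± 0.29 in controls (adjusted p = 0.147). Pgk1 gave 1.16 ± 0.39 in controls and 1.02 ± 0.39 in G93A mice. The medians of the 8 genes were 0.11 in controls and 0.53 in G93A mice, beside -0.10 and -0.06 over all tested probe sets.

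From 90 to 120 days the changes ran in both directions. In controls 1 of 16 probe sets rose, Eno2 by 2.02 ± 0.42 (adjusted p = 0.0185), against 0.664% of all tested that rose, and 0 fell. Its call was lost without control replicate 1 of 90 days (2.10, adjusted p = 0.0528) or replicate 3 of 90 days (1.77, adjusted p = 0.119), and without control replicate 1 of 120 days the rise was 1.24 (adjusted p = 0.0366). It was also lost with quantile normalization (1.87, adjusted p = 0.0627), with no variance trend (adjusted p = 0.133) and with the Gapdh covariate (1.49, adjusted p = 0.372). In 3 control probe sets the arrays of 120 days lay above those of 90 days, against 6.58% of all, and in 2 below, against 10.9%.

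In G93A mice 4 of 16 probe sets fell from 90 to 120 days, against 4.3% of all tested that fell, and 0 rose. Pfkp was 2.67-fold lower at 120 days, a difference of -1.42 ± 0.29 (interval -2.02 to -0.81, adjusted p = 0.00426). The other 3 were probe sets of Ldhb: 1416183_a_at at -1.37 ± 0.42, 1448237_x_at at -1.19 ± 0.34 and 1455235_x_at at -1.38 ± 0.38, with adjusted p-values of 0.0469, 0.0291 and 0.0268. They share a target transcript and are not independent. Pfkp in controls stood at -0.66 ± 0.29 over the same step (adjusted p = 0.317). In G93A mice 6 probe sets lay wholly higher and 5 wholly lower at 120 than at 90 days, against 15.6% and 15.4% of all tested. The medians of the 8 genes were 0.47 in controls and 0.29 in G93A mice, beside -0.15 and -0.05 over all tested. The fall of Pfkp passed the test when each array was left out in turn, and with the hybridization controls as a covariate it was -0.79 (adjusted p = 0.459). Under that covariate the 3 Ldhb probe sets stood at -0.15, -0.39 and -0.35 (lowest adjusted p = 0.793), and each of them also lost its call without G93A replicate 1 of 90 days (-1.16, -1.09 and -1.23) and without some other single arrays. With no variance trend none of the 3 passed, with adjusted p-values of 0.150 for 1416183_a_at and 0.105 for 1455235_x_at, and 1448237_x_at just below the latter.

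**Figure D3:**
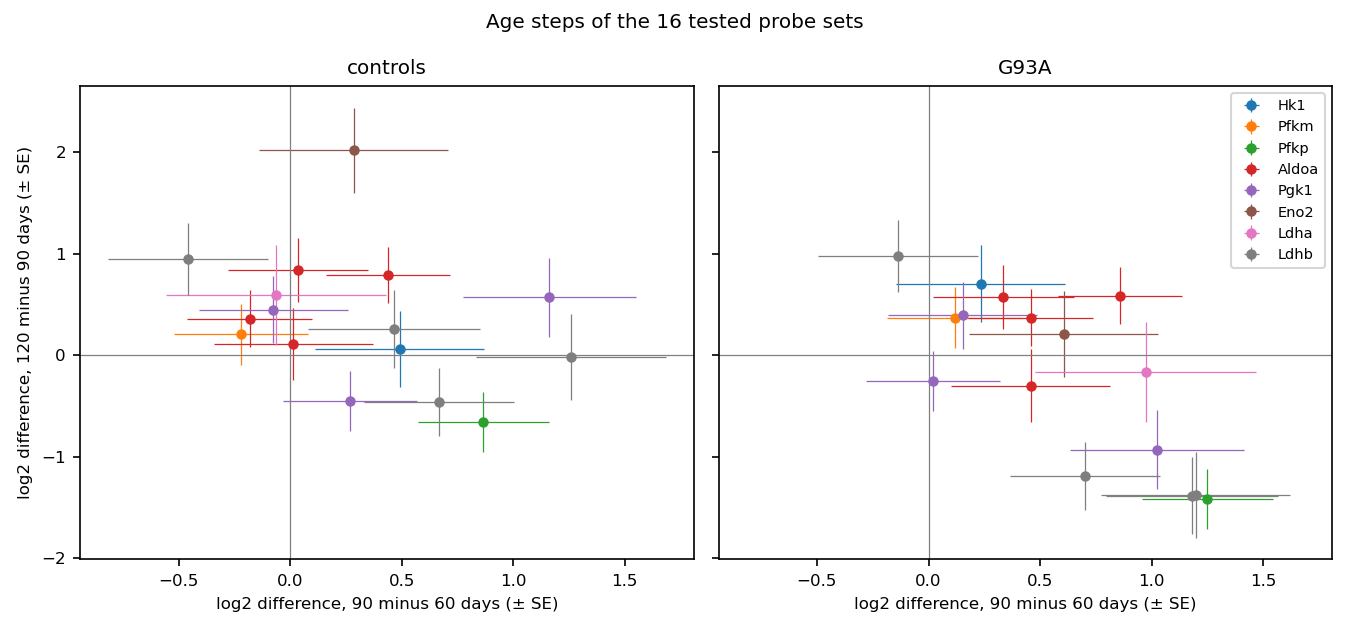
Log2 difference from 60 to 90 days (horizontal axis) and from 90 to 120 days (vertical axis) of the 16 tested probe sets, in controls (left) and in G93A mice (right), with bars for ± 1 standard error from limma. Both axes use the 90 day arrays, with opposite sign. Spread of those arrays alone can therefore move points toward the lower right or toward the upper left. Pfkp, 3 Ldhb probe sets and 1417864_at of Pgk1 lie at the lower right in G93A mice. Ldha, 1433604_x_at of Aldoa and 1439435_x_at of Pgk1 lie there too, with smaller falls. Eno2 is the highest point in controls.

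Probe sets of a single gene differed in how they moved, most clearly for Ldhb. In G93A mice 1416183_a_at gave 1120, 893 and 554.5 at 60 days, 2530.1, 1440.1 and 1837 at 90 days, then 459.9, 699.8 and 1193 at 120 days. Probe set 1434499_a_at, whose G93A signals are given above, moved the other way: its 120 day signals all lay above its 90 day signals, by 0.98 ± 0.36 (adjusted p = 0.0985). In controls it stood at 0.95 ± 0.36 over that step, while 1416183_a_at stood at -0.02 ± 0.42, 1448237_x_at at -0.46 ± 0.34 and 1455235_x_at at 0.25 ± 0.38. Between genotypes, 1416183_a_at gave 0.86, 0.80 and -0.56 at 60, 90 and 120 days, all with overlap, where 1434499_a_at was below 0 at each age. The smallest adjusted p of an Ldhb probe set between genotypes was 0.336, for 1455235_x_at at 120 days (-0.91 ± 0.38). Which of these probe sets follows the Ldhb transcript best was not tested, so no direction is given for the gene as a whole.

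For Pgk1, 1417864_at rose from 60 to 120 days in controls, but 1438640_x_at stood at 0.37 ± 0.33 and 1439435_x_at at -0.18 ± 0.30, and the mean of the 3 probe sets at 0.64 (adjusted p = 0.147). Signals of 1438640_x_at were 9029.7, 7455.5 and 6801 in controls of 60 days and 8339, 13002 and 9171 in controls of 120 days, with overlap. For Aldoa the rise of 1434799_x_at in controls was not matched by 1416921_x_at (0.18 ± 0.28) or 1433604_x_at (0.13 ± 0.36), while 1439375_x_at stood at 0.88 ± 0.32 (adjusted p = 0.0882). Eno2, Hk1, Pfkm, Pfkp and Ldha each had 1 tested probe set, so no such check was possible for them.

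**Figure D4:**
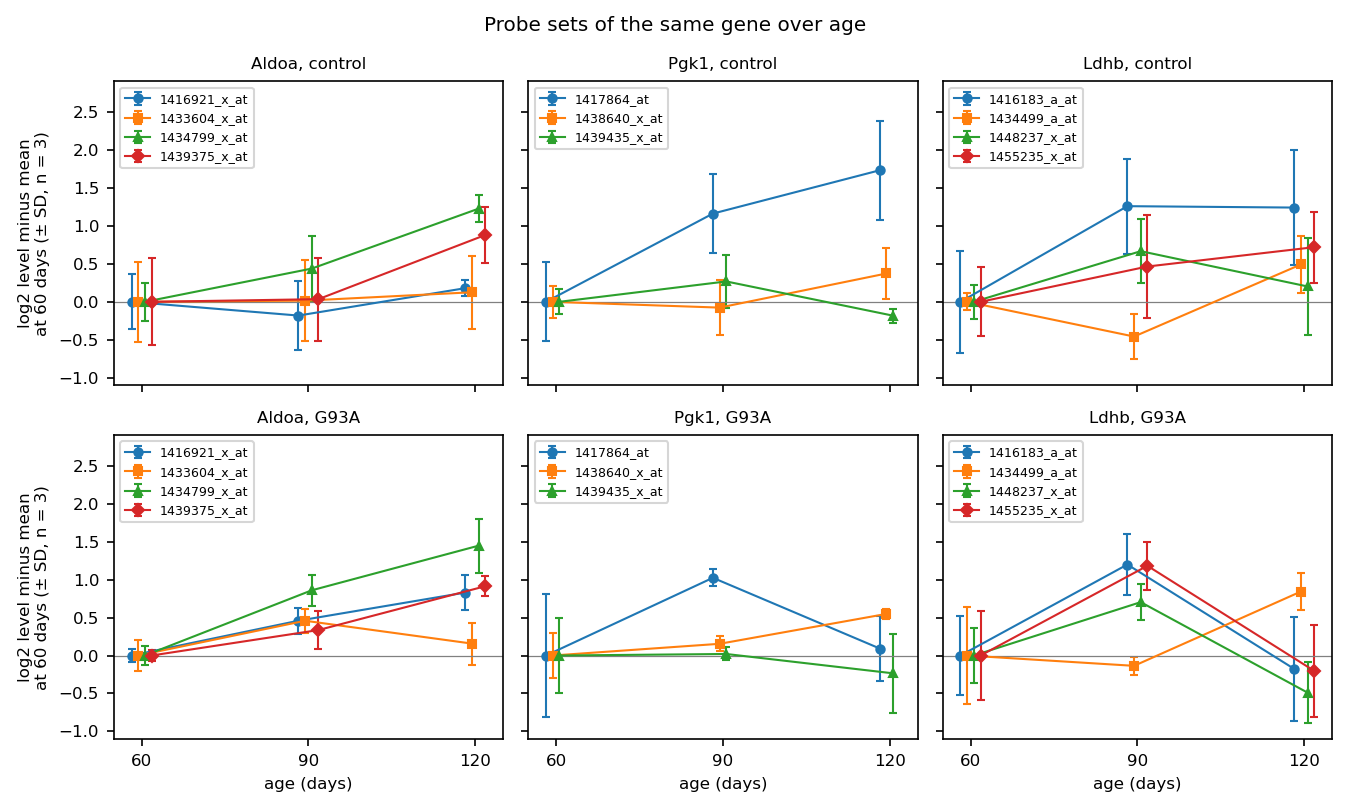
Mean log2 level relative to the mean at 60 days, ± SD of 3 arrays, against age in days for every tested probe set of Aldoa, Pgk1 and Ldhb, in controls (top) and G93A mice (bottom). In G93A mice 3 Ldhb probe sets peak at 90 days, while 1434499_a_at is lowest at 90 days and highest at 120 days.

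Summed signals of oligodendrocyte markers stood higher at 120 days than before in both genotypes, and those of microglial markers in G93A mice. The signals of 7 measured oligodendrocyte markers (of 8 listed) summed to 4990 to 7587 in controls of 60 days, 3656 to 7649 at 90 days and 14258 to 21543 at 120 days. In G93A mice these sums were 7451 to 9883, 5533 to 9713 and 12679 to 19335. Mbp alone gave 9967 to 18709 of the control sums and 10976 to 15607 of the G93A sums of 120 days. Of 6 such markers tested from 60 to 120 days in limma, 5 lay above 0 in each genotype. In controls 2 were called higher and 0 lower, and in G93A mice 0 were called, against 6.71% and 2% of all tested probe sets. The 9 microglial markers summed to at most 3953 at 60 and 90 days in both genotypes, to 3430.2 to 5817 in controls of 120 days and to 9141 to 16091 in G93A mice of 120 days. Csf1r alone, the receptor of a microglial growth factor, gave 6872 to 13708 of the G93A sums of 120 days. Of 7 microglial markers tested from 60 to 120 days in G93A mice, 6 lay above 0. There 2 were called higher and 0 lower, against 2% of all tested probe sets. In controls 4 of the 7 lay above 0 over that span, and 2 rose and 2 fell, where 6.71% of all tested probe sets were called. Those that fell were Cx3cr1 (-2.06, adjusted p = 0.0317) and C1qa (-2.09, adjusted p = 0.0102). Their control signals of 120 days were 19.3, 45.4 and 30.3 for Cx3cr1 and 28.4, 16.4 and 34.7 for C1qa. All lay below the medians of their arrays, 37, 46.4 and 47.8, so the sizes of these falls are uncertain. Sums of 8 astrocyte markers ran from 1114 to 3098 over all arrays, with medians in G93A mice of 1409, 2567 and 1624 at 60, 90 and 120 days. The part of other cells in the age differences of the enzymes was not tested. Of 8 motor neuron markers, Prph, Nefl, Nefm and Nefh lay above the array median on all 18 arrays, while the acetylcholine transporter Slc18a3 did on 0, the choline transporter Slc5a7 on 2, and the transcription factors Isl1 and Mnx1 on 9 and 8. Motor neuron sums were 14317 to 28624 in controls and 8672 to 16217 in G93A mice of 120 days.

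The rest of the pathway gave no call between genotypes either. Over all tested probe sets, 0.688%, 0% and 0.0241% were called at 60, 90 and 120 days. Unadjusted p-values below 0.05 in limma were found for 12.6%, 4.56% and 12.2% of them. Of 15 other glycolytic enzymes listed, 10 were tested, and 0 were called at each age, with 0, 1 and 1 at an unadjusted p below 0.05. Of 14 regulators and transporters, 9 were tested, with 0 called and 4, 0 and 1 at an unadjusted p below 0.05. Of 11 genes of side branches, 10 were tested, with 0 called and 2, 2 and 0 at an unadjusted p below 0.05. Gpd2, the mitochondrial glycerol-3-phosphate dehydrogenase that carries reducing power from glycolysis into the respiratory chain, had the smallest adjusted p of these. Its signals at 60 days were 249.5, 74.7 and 92.1 in G93A mice and 3.1, 9.2 and 20.9 in controls, without overlap. The fitted difference was 3.83 ± 0.96 (unadjusted p = 0.000547, adjusted p = 0.0648), but the control signals lay below the medians of their arrays, 58 to 64, and were not separated from background here, so the size of this difference is uncertain. At 120 days Pklr, a pyruvate kinase of liver and red cells, gave 114, 83.7 and 163 in G93A mice and 33.9, 51.2 and 2.7 in controls (2.79 ± 0.75, adjusted p = 0.135). These control signals lay near or below the medians of their arrays, 37, 46.4 and 47.8, so the size of this difference is uncertain too.

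Over age, 9 of these further genes were called in at least 1 comparison within a genotype, besides Gpd2. Unlike those of the members, their differences were not followed through the alternative settings. Of the 29 tested genes of the 3 lists, 6 were called in controls and 1 in G93A mice from 60 to 120 days, against 6.71% and 2% of all tested probe sets. From 90 to 120 days 2 were called in controls and 4 in G93A mice, against 1.04% and 7.65% of all. Among the other enzymes, Aldoc, the aldolase of brain and chiefly of astrocytes, rose from 90 to 120 days by 1.34 ± 0.32 in controls (adjusted p = 0.0420) and by 1.40 ± 0.32 in G93A mice (adjusted p = 0.00836). Bpgm, which makes 2,3-bisphosphoglycerate, rose in controls by 1.57 ± 0.36 from 60 to 120 days (adjusted p = 0.0111) and by 2.07 ± 0.36 from 90 to 120 days (adjusted p = 0.00553), measured by a probe set of the _s_at kind, which can bind transcripts of several genes. Pkm, the pyruvate kinase of most tissues, rose in controls by 1.14 ± 0.34 from 60 to 120 days (adjusted p = 0.0418). Its signals were 111, 120.3 and 162 at 60 days and 277, 331 and 253 at 120 days, without overlap. Pklr fell in controls over the same span (-3.27 ± 0.75, adjusted p = 0.0106). Its control signals of 120 days, 33.9, 51.2 and 2.7, lay near or below the array medians, so the size of this fall is uncertain.

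Among regulators and transporters, the hypoxia-responsive subunit Hif1a fell in G93A mice from 60 to 120 days (-2.43 ± 0.59, adjusted p = 0.0323) and from 90 to 120 days (-2.10 ± 0.59, adjusted p = 0.0280). Its signals in G93A mice were 314.5, 195 and 111 at 60 days, 85.8, 237.5 and 166.5 at 90 days, then 42.4, 78.4 and 13 at 120 days, so that the 120 day arrays were the lowest of the 9. The signals of 42.4 and 13 lay below the medians of their arrays, 52 and 56, so the sizes of these falls are uncertain. In controls the 60-day arrays gave 92.6, 65.3 and 61.3, the 90-day arrays 145, 188 and 126, and the 120-day arrays 137, 67.3 and 45.5. From 90 to 120 days Hif1a stood at -1.02 ± 0.59 in controls (adjusted p = 0.465). Mpc1, a subunit of the carrier that takes pyruvate into mitochondria, fell in G93A mice from 90 to 120 days (-3.26 ± 0.68, adjusted p = 0.00451), from signals of 472, 305 and 392 to 6.7, 96.3 and 98.7. The signal of 6.7 lay far below its array's median of 52, so the size of this fall is uncertain. The glucose transporter Slc2a1 rose over that step in G93A mice by 1.19 ± 0.36 (adjusted p = 0.0449), from 816.5, 1153 and 882 to 2456, 1623 and 2491. The monocarboxylate transporter Slc16a1 rose in controls from 60 to 120 days by 3.67 ± 0.99 (adjusted p = 0.0278), from signals of 20.1, 2.8 and 2.3, which are near the bottom of the scale, to 69.8, 90.7 and 42. Of the branch genes, the pentose phosphate enzyme Taldo1 rose in controls by 3.28 ± 0.88 (adjusted p = 0.0260) and Gpd2 by 3.73 ± 0.96 (adjusted p = 0.0221) over that span, likewise from signals between 3.1 and 20.9 at 60 days.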

How the data were processed

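RNA of laser-captured motor neurons was measured on 18 one-colour arrays. What the authors deposited is 1 intensity for each probe set on each array, on a linear scale. The submitters' processing notes name MAS5, with version and settings not given in the sources used here. Groups came from the sample titles. Of 22690 probe sets, 64 were controls, 20380 carried 1 symbol, 691 several and 1555 none.

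Signals under 1 (965 of 408420 values, 0.236%) were set to 1 and put on the log2 scale. Probe sets above the array median on at least 3 of 18 arrays were tested (16565) with limma 3.58.1 in R 4.3.3: 6 group means, contrasts, empirical Bayes with a trend, 12 residual degrees of freedom, two-sided, Benjamini-Hochberg adjustment over all tested probe sets. The scripts were tested on simulated data. No pair of arrays held identical values (0 of 153). The number of arrays limits the precision.

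The members and gene lists were chosen with earlier results of these data known, and the steps from 60 to 90 and from 90 to 120 days, with their tests, were added after values had been seen. Named were all members, and of 3 further pathway lists every called gene and those of smallest p; not every gene eligible is described. Alternatives covered scaling, filters, the variance trend, array covariates, a replicate block and left-out arrays. Gapdh was not tested, since its probe sets are array controls or carry several symbols.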

Additional observations from a re-analysis of the deposited data

How the results depend on the processing

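Of 88 differences of the enzymes followed through the alternatives, 51 kept their direction throughout and 37 turned at least once. All 9 that were called kept their direction, but each of the 9 lost its call in at least 1 alternative. No alternative called an enzyme between genotypes. Same-numbered mice of the 2 genotypes shared little of their deviations. Over 9 such pairs the correlation of deviations ran from -0.12 to 0.06, and 0 were above 0.1. In 4 of the 9, with all pairs of 60 days among them, the same number was the best match. These values cannot show whether the mice were paired by design. With a replicate block the called member probe sets numbered 3, 1, 1 and 3 in 120 minus 60 days of controls and of G93A mice and in 120 minus 90 days of controls and of G93A mice, beside 3, 1, 1 and 4 without it. Called probe sets of all kinds between genotypes ran from 1 to 267 (114 in the main setting) at 60 days, 0 to 2 (0) at 90 days, 0 to 141 (4) at 120 days and 0 to 16 (2) for the mean, and from 0 to 250 (69) for the change with age. Over age they ran from 143 to 1787 (1112) and 25 to 483 (331) for 120 minus 60 days in controls and G93A mice, 25 to 351 (266) and 0 to 0 (0) for 90 minus 60 days, and 0 to 299 (173) and 18 to 1455 (1267) for 120 minus 90 days. No cause of these shifts was tested.

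Counts of called member probe sets moved as follows. For 120 minus 60 days in controls they were 5 with median centring, 1 with no variance trend and 0 with the Gapdh ratio as covariate. In G93A mice they were 0 with no trend and 0 with the hybridization controls as covariate, and 0 to 1 with single arrays left out. For 90 minus 60 days in controls the Gapdh covariate gave 1. For 120 minus 90 days in controls the count was 2 with median centring or the hybridization covariate and 0 with quantile normalization, no trend or the Gapdh covariate, and 0 to 1 with single arrays left out. In G93A mice it was 1 with no trend and 0 with the hybridization covariate, and 1 to 4 with single arrays left out.

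The median over the 8 genes was -0.63 for the genotypes at 120 days, 1.01 for 120 minus 60 days in controls and 0.74 for 120 minus 90 days in controls with median centring. With the mean of each gene's probe sets it was 0.20 for the last of these and 0.02 for the same step in G93A mice. With single arrays left out it ran from -0.44 to 0.07 between genotypes at 60 days and from 0.55 to 0.86 for 120 minus 60 days in G93A mice.

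Reversed differences between genotypes were these. Quantile normalization gave Eno2 -0.13, Pfkp -0.15 and Ldhb 1455235_x_at -0.03 at 60 days, and Aldoa 0.01 at 120 days. Median centring gave Hk1 0.01 at 60 days, Pfkm 0.12 at 90 days, and Hk1 -0.15 and Pfkm -0.19 at 120 days. The mean of the probe sets gave Ldhb 0.13 at 60 and 0.39 at 90 days, and Pgk1 -0.07 over all ages. The Gapdh covariate gave Eno2 -0.26, Pfkp -0.32, Ldhb 1448237_x_at -0.03 and 1455235_x_at -0.52 at 60 days. At 90 days it gave Aldoa 0.06, Eno2 -0.10, Ldhb 0.13, Pfkp -0.11, and the Ldhb probe sets 1416183_a_at -0.21, 1448237_x_at -0.16 and 1455235_x_at -0.06. Pgk1 over all ages was -0.11 with it and -0.03 with the hybridization covariate. The latter gave Eno2 -0.49, Pfkp -0.35, Ldhb 1448237_x_at -0.19 and 1455235_x_at -0.64 at 60 days. With single arrays left out, the ranges at 60 days were -0.12 to 0.23 for Eno2, -0.46 to 0.17 for Hk1, -0.16 to 0.21 for Pfkp and -0.25 to 0.34 for Ldhb 1455235_x_at. At 90 days they were -0.42 to 0.03 for Aldoa and -0.12 to 0.06 for Pfkm, and at 120 days -0.71 to 0.24 for Ldha and -0.13 to 0.32 for Pfkm.

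Reversed age differences were these. For 120 minus 60 days in controls, quantile normalization gave Aldoa -0.21 and Pfkp -0.08, median centring gave Pfkm 0.49, and the Gapdh covariate gave Pfkp -0.31. In G93A mice, Pgk1 was -0.04 with quantile normalization and -0.37 with the Gapdh covariate, Ldhb -0.01 with the mean of its probe sets, and Pfkp 0.35 with the hybridization covariate. For 90 minus 60 days in controls, the hybridization covariate gave Eno2 -0.19 and Ldhb 1455235_x_at -0.09, the probe-set mean gave Ldhb 0.48, and median centring gave Ldha 0.16. In G93A mice Ldhb was 0.01 with median centring and 0.74 with the probe-set mean. For 120 minus 90 days in controls, the Gapdh covariate gave Pgk1 -0.14 and Ldhb 1455235_x_at -0.58. Quantile normalization gave that probe set -0.08. Ldhb 1416183_a_at was 0.26 with median centring and 0.89 with the hybridization covariate, which gave 1448237_x_at 0.12. In G93A mice, Pgk1 was 0.34 with the hybridization covariate, Eno2 -0.02 with the Gapdh covariate and Ldhb -0.74 with the probe-set mean. With single arrays left out, the ranges for 120 minus 60 days were -0.03 to 0.30 for Aldoa and -0.20 to 0.24 for Pfkm in controls, and -0.33 to 0.48 for Pgk1 and -0.34 to 0 for Pfkp in G93A mice. For 90 minus 60 days they were -0.23 to 0.21 for Ldha in controls and -0.47 to 0.17 for Ldhb in G93A mice. For 120 minus 90 days in controls they were -0.44 to 0.29 for Ldhb 1416183_a_at and -0.11 to 0.56 for 1455235_x_at.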
